A study of Rattus norvegicus with 12 samples.

Results

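The fibrillar collagen genes described here were the 7 rows of the expression tables with the symbols Col1a1, Col1a2, Col3a1, Col5a1, Col5a2, Col5a3 and Col11a1, out of 22850 features listed. They were chosen by name as chains of collagen types I, III, V and XI, and all 7 were found. Primary fibroblasts were grown from newborn rat atria and separated from cardiomyocytes by differential adhesion, that is, by how quickly the cells attach. The 12 libraries came from 3 treatments with 4 replicates each. Every culture received 1 µmol/L AngII (angiotensin II, a peptide hormone that activates cardiac fibroblasts) for 48 h in medium with 2% FBS. The AngII group received nothing else, the AngII+HNG group was given 10 µmol/L HNG, an analogue of the mitochondrial-derived peptide humanin, 1 h before AngII, and the AngII+MOTS-c group was given 5 µmol/L of the mitochondrial-derived peptide MOTS-c in the same way. The comparisons ask how each peptide changed the transcripts of fibroblasts under AngII. Cells without AngII were not analysed here, so all differences are between cultures that carried the same AngII stimulus.

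Fibrillar collagens are the rope-forming proteins of the extracellular matrix. Their chains are hydroxylated and wound into a helix in the endoplasmic reticulum, secreted as procollagen, trimmed at both ends by proteases and assembled into fibrils. In the heart, fibroblasts make most of the interstitial collagen, types I and III form the bulk of the fibrils, and types V and XI are minor partners known for starting fibrils and limiting their width. Col1a1 and Col1a2 encode the chains of type I, Col3a1 that of type III, Col5a1, Col5a2 and Col5a3 those of type V, and Col11a1 a chain of type XI.

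Promoter sequences were looked up in RefSeq (assembly GRCr8) for the 7 genes, and 5 had an entry, covering 250 bases before to 50 after the start. Col1a1 and Col3a1 had none. Stretches are shown for a member that varied little between libraries, Col1a2, and for the member that varied most, Col5a3, whose upstream sequences differ in the motifs they hold. Capitals mark every match on either strand to CCAAT, known from NF-Y sites, to TATAAA, known from the TATA box, and to GGGCGG, known from Sp1 sites; no matches overlapped.
Col1a2, chr4:33518307-33518416, plus strand, 250 to 141 bases before the start: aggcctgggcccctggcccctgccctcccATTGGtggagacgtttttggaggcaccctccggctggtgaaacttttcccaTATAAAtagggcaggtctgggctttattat
Col5a3, chr8:27625999-27626148, minus strand, 200 to 51 bases before the start: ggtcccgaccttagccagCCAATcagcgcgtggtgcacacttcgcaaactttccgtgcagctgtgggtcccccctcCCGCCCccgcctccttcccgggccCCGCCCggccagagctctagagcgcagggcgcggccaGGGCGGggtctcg
The Col1a2 window held a reversed CCAAT 221 bases and a TATAAA 170 bases before the annotated start, and no GGGCGG. The Col5a3 window held a CCAAT 182 bases before the start, a reversed GGGCGG at 124 and 100 bases, a forward GGGCGG at 63 bases, and no TATAAA. In the Col5a1 window GGGCGG was found 127 bases before the start, the Col11a1 window held a reversed CCAAT at 230 and 77 bases and GGGCGG at 108, 32 and 19 bases, and the Col5a2 window held none of the motifs. Col5a2, not displayed, varied least within treatments (SD of log2 CPM 0.027, beside 0.028 for Col1a2). Whether the motifs go with the spread between libraries was not tested. Among the 33469 promoters of the same table, 37.5% held CCAAT, 14.2% TATAAA and 33.1% GGGCGG, so each is common, and a match is no evidence that a factor binds. Col3a1 and Col5a2 are neighbouring protein-coding genes on chromosome 9 in this assembly, and the other members lie on chromosomes 10 (Col1a1), 4 (Col1a2), 3 (Col5a1), 8 (Col5a3) and 2 (Col11a1).

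Sequencing gave 27960586 to 38322354 counts per library, and 3 counts equalled 0.0783 to 0.107 CPM, the count scaled for library depth. The members together took 6.48 to 7.16% of all counts and 2.69 to 3.13% of the summed FPKM, a unit that divides counts by gene length and library total. Within each treatment replicate 4 gave the highest share of counts, 6.88% in AngII, 7.16% in AngII+HNG and 6.92% in AngII+MOTS-c. The labelled cell type was checked against markers: all 10 fibroblast markers were at or above 0.5 FPKM, with Vim at 1303 to 1449, Dcn at 56.1 to 102 and Pdgfra at 29.8 to 37.7 FPKM over the 12 libraries, and their sum, mostly Vim, was 2088 to 2367 FPKM per library. All 12 cardiomyocyte markers were found too and summed to 4277 to 5609 FPKM per library, and the 10 smooth muscle and pericyte markers summed to 3948 to 5195 FPKM. Most of that latter sum came from Acta2 (2229 to 2940 FPKM) and Tagln (1414 to 2043 FPKM), which activated fibroblasts also express, and the other 8 ran from Kcnj8 (0.652 to 1.60 FPKM) to Des (93.2 to 136 FPKM), with Cnn1 at 71.1 to 98.5 and Notch3 at 40.8 to 57.0 FPKM. The cultures thus held transcripts that mark other cell types beside those of fibroblasts, and in such bulk samples fewer cells of a type and less RNA per cell cannot be told apart.

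Compared per length, the 7 genes spanned a wide range of levels, and in AngII+HNG the mean of Col3a1 stood above Col1a1 and that of Col5a1 above Col5a2, unlike in the other treatments. Col1a1 averaged 4234 FPKM over the 12 libraries (3792 to 4429), Col3a1 4119 FPKM (3798 to 4730) and Col1a2 3267 FPKM (3164 to 3427). Col1a1, Col3a1 and Col1a2 were the first, the second and the third of all genes by counts in every library, and held places 2 to 10 by FPKM. The FPKM ranges of Col1a1 and Col3a1 overlapped, so these neighbours in the order did not differ beyond their spread, whereas Col1a2 lay below both in every library. A wide step separated them from type V: Col5a2 averaged 349 FPKM (333 to 364) and Col5a1 343 FPKM (333 to 357), again overlapping. Col11a1 followed at 50.0 FPKM (47.0 to 53.7), and Col5a3 was lowest at 33.0 FPKM (27.2 to 37.7), below Col11a1 in every library. Each gene varied little, with a highest library 1.07 times (Col5a1) to 1.38 times (Col5a3) its lowest in FPKM.

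**Figure D1:**
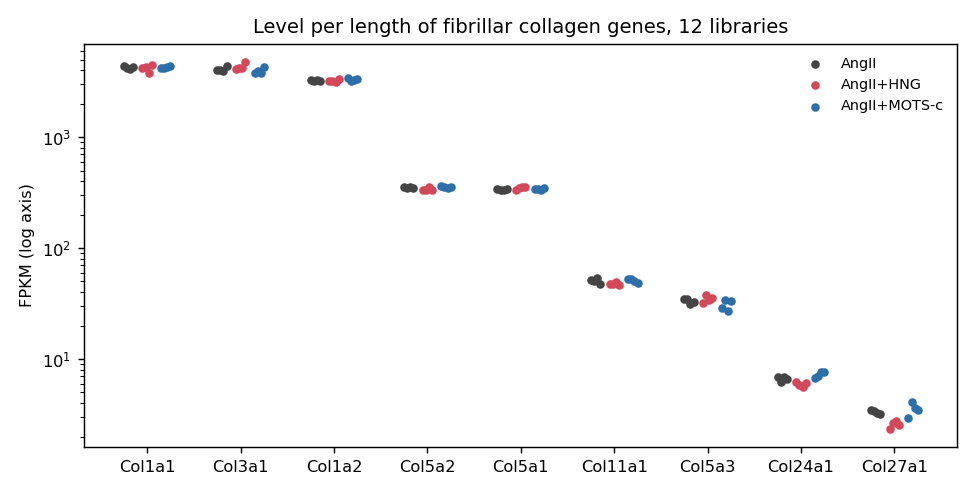
FPKM (vertical, log axis) of the 7 fibrillar collagen genes and of Col24a1 and Col27a1, 2 fibrillar genes outside the list, with one point per library, coloured by treatment. Col1a1, Col3a1 and Col1a2 sit at 3164 FPKM or more in all 12 libraries, Col5a1 and Col5a2 between 333 and 364, and Col11a1 and Col5a3 between 27.2 and 53.7.

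The first question is whether HNG changed these transcripts. None of the 7 passed the test in AngII+HNG against AngII (edgeR quasi-likelihood test, adjusted p below 0.05), where 5.98% of the 14524 genes tested were called. At an unadjusted edgeR p below 0.05, 1 of the 7 (Col11a1) was counted, and 20.3% of all genes were. DESeq2 and limma also called 0 of the 7 in each comparison. With 7 genes a count of 0 lies near that background and says nothing particular about them. The median log2 fold change of the 7 was -0.025, beside 0.0043 over all genes. A difference below 0.1 on the log2 scale was seen for 6 of the 7 and for 55.2% of all genes. The test was fitted across all genes that passed a low-count filter, which all 7 did in each comparison. The design text calls the replicates biological but does not say whether they came from separate animals, so p-values measure the spread between these libraries.

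Type I collagen, the main load-bearing collagen of scar, did not pass the test with HNG. Col1a1 gave 26743, 25609, 25243 and 26627 CPM in AngII replicates 1 to 4 and 25353, 26229, 22848 and 26750 CPM in AngII+HNG. The groups overlapped: the highest and the lowest of these 8 libraries were both AngII+HNG libraries, replicate 4 and replicate 3. The log2 fold change was -0.041 (SE 0.045, 95% confidence interval -0.14 to 0.057, edgeR adjusted p = 0.688), which is -2.77% with an interval from -9.14 to 4.05%. Without AngII+HNG replicate 3 the log2 fold change was 0.0038, so that library set the sign. Col1a2, the other chain of type I, gave 15262, 15202, 15228 and 15277 CPM in AngII and 14850, 14949, 14610 and 15404 CPM in AngII+HNG. Here 3 of the 4 AngII+HNG libraries were below every AngII library and replicate 4 was above all of them. Its log2 fold change was -0.025 (SE 0.029, 95% confidence interval -0.089 to 0.038, edgeR adjusted p = 0.701). Over the 22 alternatives, which change the scaling, filter, tool or fit or leave out libraries, the log2 fold change of Col1a2 ran from -0.050 to -0.0074, and it was -0.039 without AngII+HNG replicate 4 and -0.016 without AngII+HNG replicate 3.

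Type III collagen, the finer fibril former that accompanies type I in compliant tissue, did not pass either. Col3a1 gave 20335, 20283, 19581 and 21926 CPM in AngII and 20396, 20704, 20836 and 23387 CPM in AngII+HNG. The groups overlapped, and in each treatment replicate 4 was the highest library. The log2 fold change was 0.057 (SE 0.048, 95% confidence interval -0.046 to 0.16, edgeR adjusted p = 0.562). Without AngII+HNG replicate 4 it was 0.011, so most of the estimate came from that library.

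The type V chains and Col11a1 gave the smallest and the largest estimates. Col5a1, a chain found in most forms of type V, gave 2756, 2670, 2654 and 2756 CPM in AngII and 2629, 2728, 2808 and 2797 CPM in AngII+HNG, a log2 fold change of 0.019 (SE 0.035, edgeR adjusted p = 0.829). Without single libraries the estimate of Col5a1 was 0.0054 (AngII+HNG replicate 3) to 0.039 (AngII+HNG replicate 1), and over all 22 alternatives 0.00062 to 0.043. Its partner chain Col5a2 gave 2349, 2339, 2371 and 2323 CPM in AngII and 2222, 2188, 2320 and 2213 CPM in AngII+HNG. Col5a2 was the only member whose AngII+HNG libraries all lay below every AngII library (2320 CPM in AngII+HNG replicate 3 beside 2323 CPM in AngII replicate 4); groups did not overlap in this direction for 6.56% of all genes, and for 13.6% in either direction. Its log2 fold change of -0.067 (SE 0.033, 95% confidence interval -0.14 to 0.0053) did not pass the test (edgeR adjusted p = 0.290). Col5a3, the least abundant type V chain, gave 213, 210, 188 and 197 CPM in AngII and 191, 225, 204 and 213 CPM in AngII+HNG, with overlapping groups and a log2 fold change of 0.047 (SE 0.054, edgeR adjusted p = 0.702). That estimate for Col5a3 was 0.0076 without AngII+HNG replicate 2, 0.012 without AngII replicate 3 and 0.086 without AngII+HNG replicate 1, the first and the last of these being the ends of its range over the 22 alternatives.

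Col11a1, a fibril-starting chain best known from cartilage, had the lowest unadjusted p of the 7. It gave 414, 410, 432 and 387 CPM in AngII and 382, 381, 393 and 374 CPM in AngII+HNG. All AngII+HNG libraries but replicate 3 lay below every AngII library, so the groups overlapped by a single pair. The log2 fold change was -0.10 (SE 0.041, 95% confidence interval -0.19 to -0.013, edgeR unadjusted p = 0.0276), or -6.76% with an interval from -12.3 to -0.902%, and it did not pass after adjustment over all genes (edgeR adjusted p = 0.182). Replicate 4 was the lowest library for Col11a1 in all 3 treatments.

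**Figure D2:**
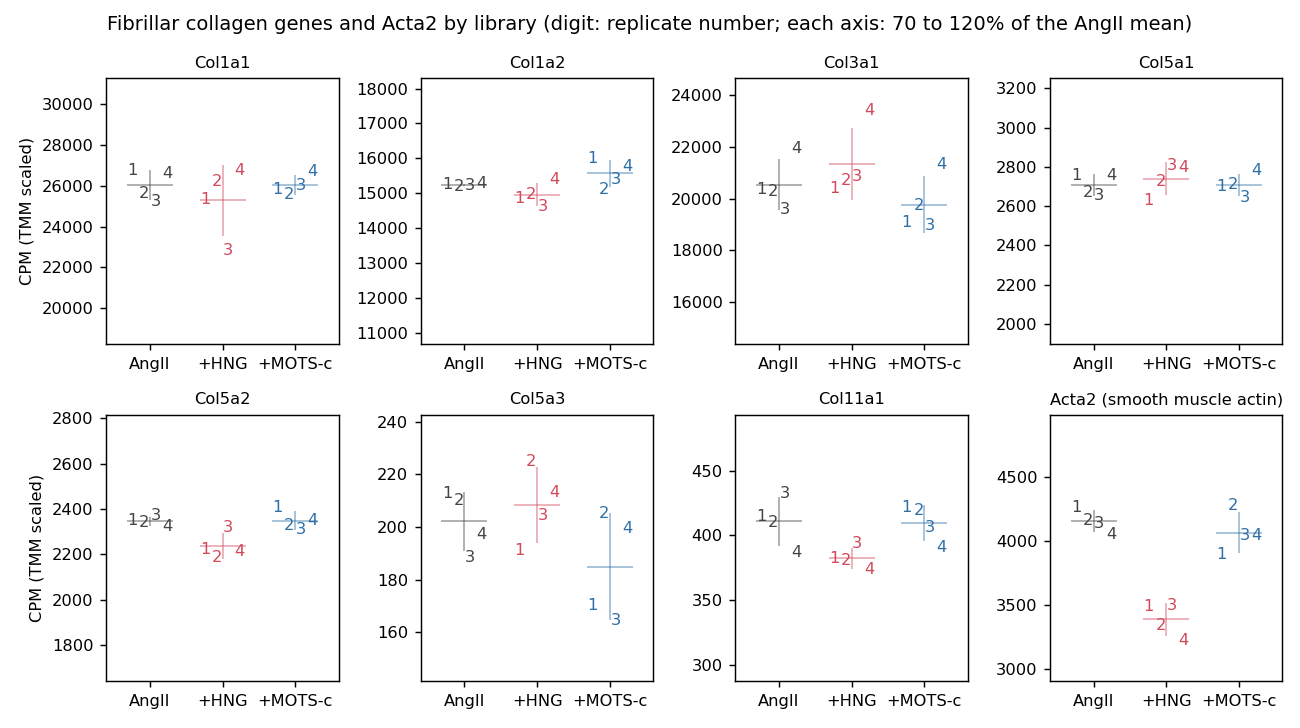
CPM of the 7 genes and of Acta2 in each library (digits are replicate numbers), with the mean (horizontal line) and SD (vertical line, n = 4) of each treatment; each vertical axis runs from 70 to 120% of the gene's AngII mean, not from 0. The treatments overlap in every collagen panel except Col5a2 (AngII+HNG under AngII), whereas Acta2 in AngII+HNG, 3224 to 3497 CPM, lies below all other libraries.

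The second question is whether MOTS-c changed them. None of the 7 passed in AngII+MOTS-c against AngII, where 1 of 14488 genes was called (0.0069%), so this comparison called almost nothing anywhere; 0 of the 7 and 5.05% of all genes had an unadjusted edgeR p below 0.05. The median log2 fold change of the 7 was 0.00017, beside -0.00076 over all genes, and no member had groups that did not overlap, beside 3.44% of all genes. This comparison and the HNG comparison share the 4 AngII libraries.

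For the type I chains the MOTS-c values were close to those under AngII alone. Col1a1 gave 25831, 25602, 26026 and 26729 CPM in AngII+MOTS-c, within the range of the AngII libraries. The log2 fold change of Col1a1 was 0.00017 (SE 0.031, 95% confidence interval -0.066 to 0.066, edgeR adjusted p = 0.999), and as a percentage the interval ran from -4.46 to 4.69%. Its sign turned under 9 of the 22 alternative fits, none of which called it. Col1a2 gave 15983, 15102, 15403 and 15776 CPM, of which 3 were above every AngII library and replicate 2 was below them, with a log2 fold change of 0.031 (SE 0.029, edgeR adjusted p = 0.942).

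Col3a1 gave 19057, 19720, 18964 and 21321 CPM in AngII+MOTS-c, with replicates 1 and 3 below every AngII library, and a log2 fold change of -0.054 (SE 0.043, 95% confidence interval -0.15 to 0.040, edgeR adjusted p = 0.939). Over the 22 alternatives this estimate ran from -0.092 to -0.022. Among the type V chains, Col5a1 gave 2698, 2711, 2645 and 2780 CPM (log2 fold change 0.00040, SE 0.029) and Col5a2 2405, 2328, 2309 and 2350 CPM (log2 fold change 0.0022, SE 0.028), both with an edgeR adjusted p above 0.99. The estimate farthest from 0 was that of Col5a3, at 170, 205, 165 and 200 CPM. Replicates 1 and 3 were below every AngII library and replicates 2 and 4 were within their range. The log2 fold change of Col5a3 was -0.13 (SE 0.065, 95% confidence interval -0.27 to 0.013, edgeR adjusted p = 0.924), and -0.18 to -0.065 over the 22 alternatives. Col11a1 gave 422, 419, 406 and 391 CPM, inside the AngII range, with a log2 fold change of -0.0036 (SE 0.038, edgeR adjusted p = 0.997).

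The peptides were also compared with each other. None of the 7 passed in AngII+HNG against AngII+MOTS-c, where 4.41% of 14448 genes were called. At an unadjusted edgeR p below 0.05, 2 of the 7 and 19.3% of all genes were counted. No member had groups that did not overlap, beside 12.5% of all genes. Col5a3 had a log2 fold change of 0.17 for HNG minus MOTS-c (SE 0.072, 95% confidence interval 0.015 to 0.33, edgeR unadjusted p = 0.0339, adjusted p = 0.215). Col11a1 had a log2 fold change of -0.10 (SE 0.039, 95% confidence interval -0.18 to -0.015, edgeR unadjusted p = 0.0240, adjusted p = 0.180). Col3a1 differed by 0.11 (SE 0.052, 95% confidence interval -0.0026 to 0.22, edgeR adjusted p = 0.271), and by 0.065 to 0.15 over the 22 alternatives. The remaining members had log2 fold changes between -0.071 (Col5a2) and 0.016 (Col5a1). In all, 21 member tests were made over the 3 comparisons, each adjusted over all genes of its comparison.

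**Figure D3:**
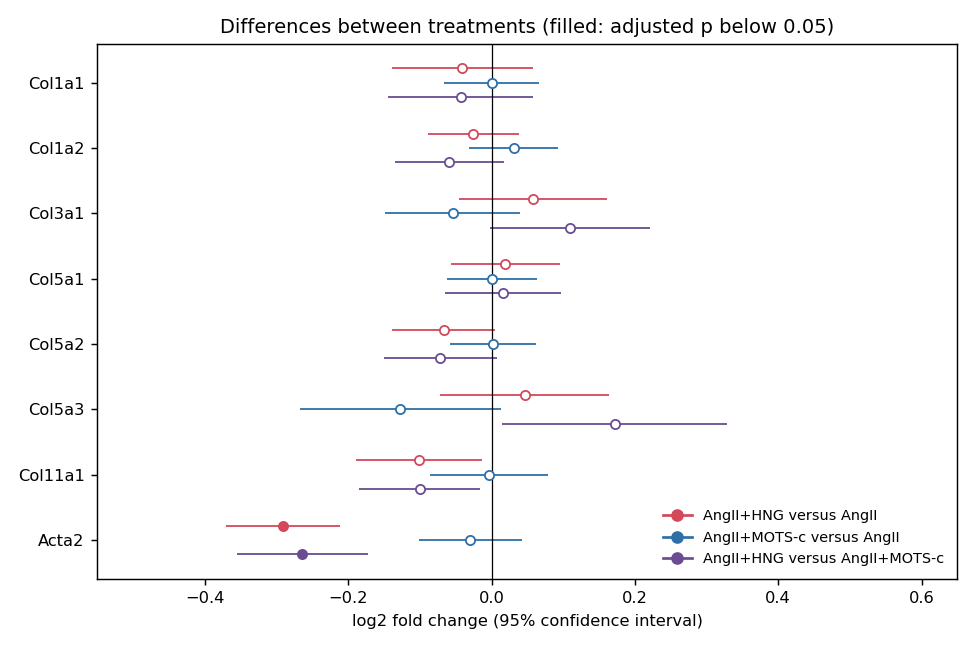
Log2 fold change (horizontal, with 95% confidence interval) of the 7 genes and Acta2 in the 3 comparisons, coloured by comparison, with filled points where the edgeR adjusted p was below 0.05. All 21 collagen points are open, and their intervals lie between -0.27 and 0.33; Acta2 is filled in both comparisons that involve AngII+HNG.

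Acta2, the smooth muscle actin that marks fibroblast activation into myofibroblasts, shows how the same libraries look where a gene passed. It gave 4257, 4161, 4139 and 4048 CPM in AngII, 3485, 3340, 3497 and 3224 CPM in AngII+HNG and 3895, 4279, 4045 and 4039 CPM in AngII+MOTS-c. Every AngII+HNG library lay below all 8 others, and Acta2 fell with HNG by 0.29 on the log2 scale (SE 0.037, edgeR adjusted p = 7.3e-04). Of the 10 smooth muscle and pericyte markers, 5 fell with HNG (Acta2, Tagln, Myh11, Cnn1 and Notch3) and none rose, beside 2.58% and 3.4% of all genes. The summed FPKM of the 10 was 3948 to 4453 in AngII+HNG and 4931 to 5195 in AngII. Fibroblast markers moved as well: 4 of 10 rose with HNG (Thy1, Tcf21, Mmp2 and Fbln1) and none fell, beside 3.4% and 2.58% of all genes. Under the 22 alternatives the call of Thy1 was lost in 7 (edgeR adjusted p up to 0.095), among them leaving out AngII replicate 1, 3 or 4 or AngII+HNG replicate 2, and that of Fbln1 in 3 (up to 0.065), among them leaving out AngII replicate 1 or 2, while the 5 smooth muscle calls stood in all of them. Among markers of other cells, 4 of 9 endothelial genes rose with HNG (summed 28.2 to 31.0 FPKM, beside 21.6 to 24.8 in AngII), 3 of 11 tested macrophage genes rose (81.8 to 113 FPKM, beside 67.4 to 84.6, with Cd163 under 0.5 FPKM throughout), and none of these fell. Of the cardiomyocyte genes 1 of 12 rose (4691 to 5609 FPKM, beside 4762 to 5122), and of the epicardial and mesothelial genes 1 of 7 rose (56.9 to 58.8 FPKM, beside 48.1 to 56.5). With 3.4% of all genes called higher, 1 call in lists this short says little about them. Of these, 3 of the 4 endothelial calls, 1 of the 3 macrophage calls and the cardiomyocyte call were lost under some alternatives, among them leaving out AngII replicate 1 or 2 for Egfl7, Kdr, Ptprc and Tnni3. The part of cell composition in the collagen values was not tested.

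Ratios between chains were taken from FPKM within each library, which removes the library's scale, and no test was made on them. Col1a1 to Col1a2 was 1.31 ± 0.035 (SD, n = 4) in AngII, 1.30 ± 0.066 in AngII+HNG and 1.28 ± 0.030 in AngII+MOTS-c, with overlapping groups. Col3a1 to Col1a1, the balance of type III to type I, was 0.963 ± 0.033 in AngII, 1.03 ± 0.071 in AngII+HNG and 0.927 ± 0.039 in AngII+MOTS-c, also overlapping. Col11a1 to Col5a1 was 0.150 ± 0.0090, 0.138 ± 0.0050 and 0.150 ± 0.0074 in the same order. The smallest ratio was that of Col5a3 to Col5a1, at 0.0987 ± 0.0051, 0.0999 ± 0.0059 and 0.0901 ± 0.0084.

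Only the ratio of the type V partners did not overlap between treatments in the deposited FPKM. Col5a1 to Col5a2 ranged from 0.990 to 1.06 in AngII+HNG, from 0.935 to 0.987 in AngII and from 0.935 to 0.989 in AngII+MOTS-c. The gene length that FPKM divides by varied between libraries by 1.56% for Col5a1 and 2.68% for Col5a3, beside 0.48% for each of the other members. With counts over a single length per gene, an alternative added after the values were seen, the ranges overlapped, at 0.987 to 1.05 in AngII+HNG and 0.934 to 0.990 in AngII. The separation of this ratio thus depended on how length was treated.

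Replicates of a treatment varied by different amounts from member to member. The SD within treatments on the log2 CPM scale was lowest for Col5a2 (0.027) and Col1a2 (0.028), followed by Col5a1 (0.035), Col11a1 (0.051), Col1a1 (0.065), Col3a1 (0.080) and Col5a3 (0.12). The members did not vary as a single block. After subtracting treatment means, Pearson's r of log2 CPM between members over the 12 libraries ran from -0.76 (Col3a1 with Col11a1) to 0.71 (Col3a1 with Col5a1), and was 0.61 for Col1a1 with Col1a2 and 0.26 for Col5a1 with Col5a2. These values describe 12 libraries that share their scaling, and no p is given for them.

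**Figure D4:**
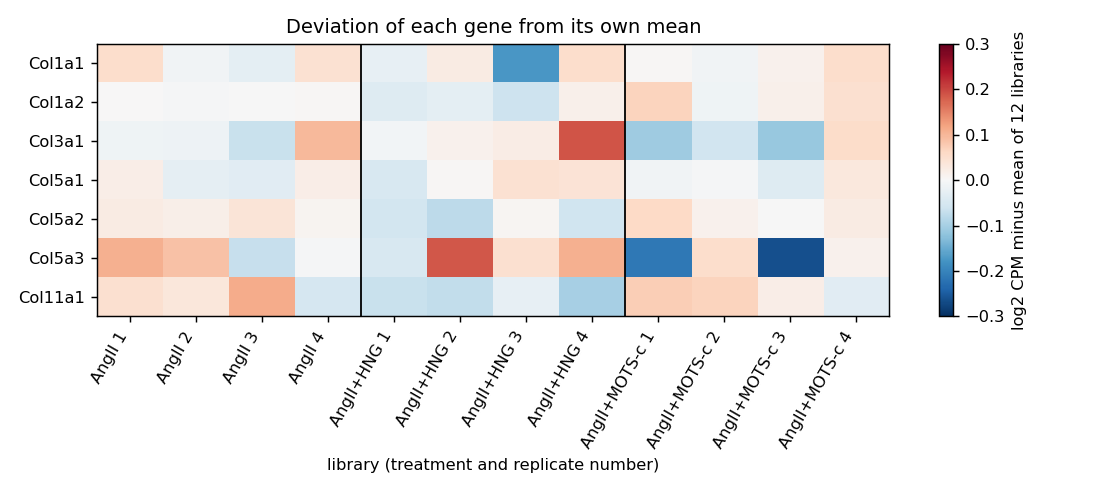
Log2 CPM of each gene minus its own mean over the 12 libraries (colour, blue below and red above 0), with genes in rows and libraries in columns ordered by treatment and replicate. Col5a3 is bluest in AngII+MOTS-c replicates 1 and 3, and within its own row Col3a1 is reddest in AngII+HNG replicate 4.

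For each member the genes most like it were sought among 9235 genes that averaged 10 CPM or more, by Pearson's r of log2 CPM over the 12 libraries after subtracting treatment means. For Col5a3 they were Myh7 (r = 0.97) and Actc1 (r = 0.95), a myosin heavy chain and an actin of heart muscle. Actc1 was lowest in AngII+MOTS-c replicates 1 and 3, at 1184 and 1166 CPM, where Col5a3 was also lowest. Myh7 was at 687 and 651 CPM there, the lowest within that treatment, but its lowest values of all were in AngII+HNG replicates 1 and 3, at 631 and 640 CPM. The summed cardiomyocyte markers were lowest in AngII+MOTS-c replicates 1 and 3, at 4538 and 4277 FPKM, against 4691 to 5609 FPKM in the other libraries. The part of cardiomyocytes in the Col5a3 values was not tested. For Col11a1 the nearest genes were Ska3 (r = 0.97) and Kif14 (r = 0.95), which act in chromosome segregation and cell division. Those of Col1a1 were Mga (r = 0.96) and Dlc1 (r = 0.95), those of Col1a2 Btg1 (r = 0.91) and St7l (r = 0.90), and those of Col3a1 Myo7a (r = 0.97) and Plekhm2 (r = 0.96). Col5a1 was nearest to Thra (r = 0.94) and Ndrg4 (r = 0.91), and Col5a2 to Ssbp2 (r = 0.94) and Polr2j (r = 0.93). The best of 9235 genes over 12 libraries is high by selection, and these names are a description only.

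The other fibrillar collagen genes were examined next, and 2 of them fell with HNG. Col27a1, a fibrillar collagen with a shortened helix known from cartilage, gave 27.6, 27.4, 25.5 and 25.6 CPM in AngII and 18.6, 21.0, 21.7 and 19.8 CPM in AngII+HNG. The groups did not overlap, and Col27a1 fell by 0.38 on the log2 scale (SE 0.062, edgeR adjusted p = 0.0032), a call kept in all 22 alternatives. Col24a1, its relative known from developing bone, gave 49.8, 44.9, 48.7 and 48.4 CPM in AngII and 43.6, 40.8, 39.3 and 43.6 CPM in AngII+HNG, and fell by 0.20 (SE 0.052, edgeR adjusted p = 0.045), a call lost in 10 of the 22 alternatives, with an adjusted p of up to 0.166. Against AngII+MOTS-c the falls were 0.46 for Col27a1 (edgeR adjusted p = 0.012) and 0.27 for Col24a1 (edgeR adjusted p = 0.016), and each of these calls was lost in 2 of the 22 alternatives. Col11a2 was measured at 3.84 ± 0.72 CPM in AngII (SD, n = 4), with a log2 fold change of 0.063 with HNG (SE 0.14), and Col2a1, the main cartilage collagen, had 0 to 13 counts per library and was not tested. In FPKM Col24a1 and Col27a1 were below every one of the 7 members.

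The machinery around fibrillar collagen was followed with 7 lists of 88 genes, of which 78 were tested. With HNG, 12 of the 78 fell and 1 rose, beside 2.58% and 3.4% of all genes; the median log2 fold change was -0.021. With MOTS-c none of the 78 passed in edgeR, DESeq2 or limma, 3 had an unadjusted edgeR p below 0.05 and the median was 0.0040. Between the peptides, 9 were lower with HNG than with MOTS-c and none higher, beside 1.77% and 2.64% of all genes.

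Among the pathway genes that passed, the change farthest from 0 was in a collagen receptor. Itga11, the alpha chain of a collagen-binding integrin of fibroblasts, gave 422, 396, 408 and 458 CPM in AngII, 299, 293, 270 and 302 CPM in AngII+HNG and 374, 412, 404 and 423 CPM in AngII+MOTS-c. All AngII+HNG libraries lay below the 8 others, and Itga11 fell with HNG by 0.53 on the log2 scale (SE 0.051, edgeR adjusted p = 1.3e-04). Itga1, another collagen-binding alpha chain, fell by 0.21 (edgeR adjusted p = 0.018) and Itgb1, the beta chain that pairs with both, fell by 0.20 (edgeR adjusted p = 0.0085). Mrc2, an endocytic receptor that takes up collagen for degradation, rose by 0.23 (edgeR adjusted p = 0.0082), from 202 to 210 CPM in AngII to 225 to 258 CPM in AngII+HNG. The other 4 of the 8 tested receptors did not pass.

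Outside the receptors the share of tested genes called lower with HNG differed between the lists. It was 25% for propeptide removal, 21.4% for export, 12.5% for fibril-associated collagens and 5% for modification and folding, beside 2.58% of all genes. Of the 8 fibril-associated collagens tested, Col12a1, which coats type I fibrils, fell by 0.30 (edgeR adjusted p = 0.0061), from 671 to 767 CPM in AngII to 552 to 644 CPM in AngII+HNG. Of 20 modification and folding genes only P4ha1, a prolyl hydroxylase subunit, fell, by 0.15 (edgeR adjusted p = 0.047). Among 14 export genes, Sec24d, a coat protein of export vesicles, fell by 0.16 (edgeR adjusted p = 0.014), Tfg, an organiser of export sites, by 0.16 (edgeR adjusted p = 0.026), and Creb3l2, a transcription factor for secretory genes, by 0.15 (edgeR adjusted p = 0.022). Among 8 propeptide-removal genes, Tll1, a tolloid protease for the C-terminal propeptide, fell by 0.43 (edgeR adjusted p = 0.024) and Adamts14, which removes N-terminal propeptides, by 0.29 (edgeR adjusted p = 0.012). None of the 17 regulators of collagen I transcription and mRNA passed, and 1 had an unadjusted edgeR p below 0.05.

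Several of these calls were lost under some alternatives. Of the 13 genes called with HNG, 4 (Col12a1, Col27a1, Itga11 and Mrc2) were called in all 22 alternatives, while the others lost their call in 2 to 12. The log2 fold changes of those others stayed below 0 in each alternative. They ran, for example, from -0.50 to -0.22 for Tll1, from -0.19 to -0.14 for Sec24d and from -0.17 to -0.092 for Creb3l2. Leaving out AngII replicate 1 took the number of all genes called from 869 to 431. Without AngII replicate 1 the calls of Adamts14, Col24a1, Creb3l2, Itga1, P4ha1, Sec24d, Tfg and Tll1 were lost, with edgeR adjusted p of 0.053 to 0.143. Fewer were lost on leaving out AngII replicate 2 (4 genes), 3 (7 genes) or 4 (3 genes), or AngII+HNG replicate 1 (P4ha1), 2 (5 genes), 3 (Col24a1) or 4 (4 genes). The library names give replicates 2 and 3 of each treatment a single shared number, and with both summed as 1 sample the calls of Col24a1, Creb3l2, P4ha1, Tfg and Tll1 were lost (edgeR adjusted p of 0.055 to 0.083). Between the peptides, the 9 genes lower with HNG were Col27a1, Col24a1, Col12a1, Plod2, Creb3l2, Adamts14, Itga11, Itga1 and Itgb1, of which Col12a1, Itga1 and Itga11 were called in all 22 alternatives. Leaving out AngII+HNG replicate 1 lost Adamts14, replicate 2 Creb3l2 and Itgb1, replicate 3 Itgb1, and replicate 4 these 3 together, with edgeR adjusted p of 0.059 to 0.108. Leaving out AngII+MOTS-c replicate 1 or 3 lost Adamts14, Creb3l2, Itgb1 and Plod2, replicate 2 Adamts14, Itgb1 and Plod2, and replicate 4 Adamts14 and Itgb1, with edgeR adjusted p of 0.052 to 0.113. With replicates 2 and 3 summed, Col24a1, Itgb1 and Plod2 were lost (edgeR adjusted p of 0.050 to 0.071).

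**Figure D5:**
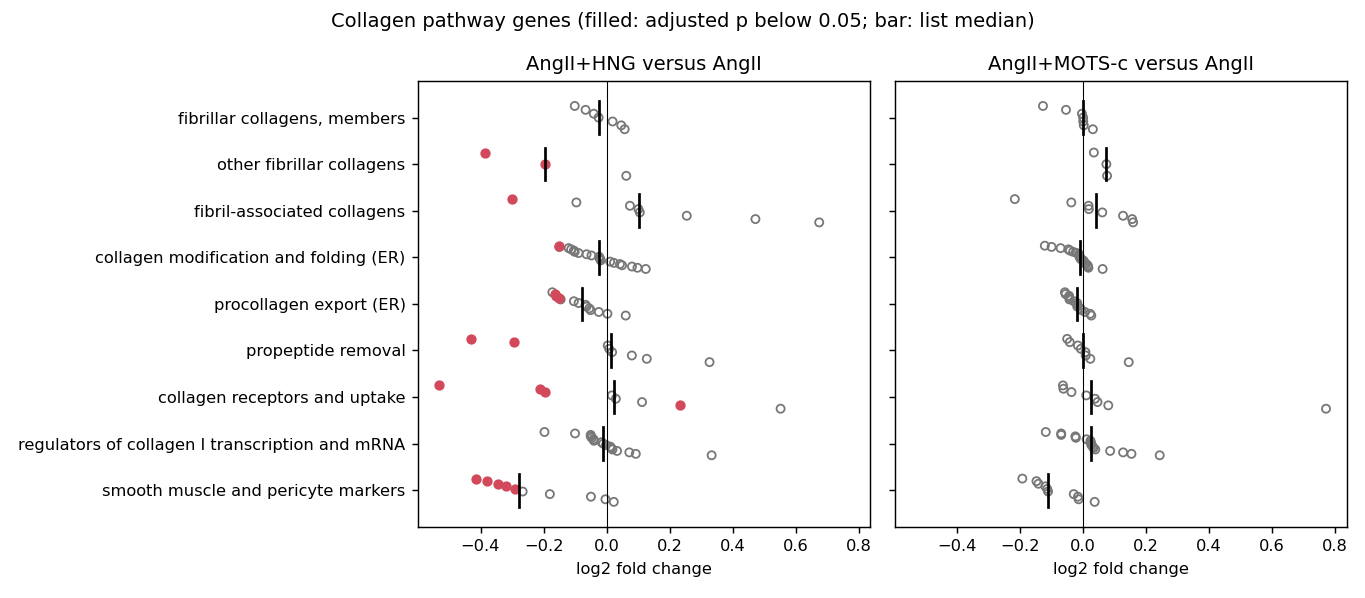
Log2 fold change of each tested gene in the 7 members, the 7 collagen pathway lists and the smooth muscle and pericyte markers, for AngII+HNG (left) and AngII+MOTS-c (right) against AngII, filled where the edgeR adjusted p was below 0.05, with a bar at each list's median. The members cluster within 0.13 of 0 on both sides, 12 pathway genes on the left are filled below 0 and 1 above, and none is filled on the right.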

How the data were processed

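Total RNA of 12 cultures was made into mRNA libraries (Hieff NGS Ultima Dual-mode kit) and sequenced in pairs on a DNBSEQ platform. The submitters' processing notes name HISAT2, Picard 1.41 and SAMtools 0.1.18; the counting tool, use of strand and genome build are not given in the sources used here. The authors deposited raw read counts for each gene, and FPKM values that divide counts by length and library total.

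Differences were tested with edgeR 4.0.16 under R 4.3.3 on those counts (filterByExpr, TMM scaling, glmQLFit and glmQLFTest), each comparison on its own 8 libraries, with Benjamini-Hochberg adjustment over all genes tested and a threshold of 0.05. SE was the log2 fold change divided by the square root of F. Printed CPM were TMM-scaled over 12 libraries. limma 3.58.1 and DESeq2 1.42.0 served as alternatives. The scripts were tested on simulated data. The named genes were all members, up to 4 called genes with the largest change per pathway list, the 2 most similar genes per member, 4 further fibrillar genes and the defining markers. The members and lists were chosen with earlier results of these data known. Groups and replicate numbers came from the sample titles. The library names number replicates differently: replicates 2 and 3 of each treatment both carry 3 and AngII+MOTS-c replicate 1 carries 2. Whether replicates 2 and 3 share a source is not given in the sources used here, so they were also summed as 1 sample, and a block by the library-name number was also fitted. Symbols Col21a1, Crtap and Pcolce2 had no row. Counting intervals cover counting error only.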

Additional observations from a re-analysis of the deposited data

Results flagged for a closer look

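Among 36 groups of 4 libraries examined (CPM of each member and the 5 FPKM ratios, in each treatment), 2 held a library that stood apart from the rest of its group by Dixon's ratio of gap to range, for which the 95% critical value is 0.829; chance flags about 1 in 20 groups. Col3a1 in AngII+HNG replicate 4 was the highest of its group at 23387 CPM, with a ratio of 0.853, and replicate 4 was the highest Col3a1 library in the other treatments too. The FPKM ratio of Col1a1 to Col1a2 in AngII+MOTS-c replicate 1 was the lowest of its group at 1.24, with a ratio of 0.929.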

How the results depend on the processing

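Each log2 fold change was recomputed under 22 alternatives (other scaling, filters, tools, fits and left-out libraries), which gave 462 member fits, and 4 of them called a member. The 4 libraries per treatment limit what can be seen: the widest 95% interval among the members was that of Col5a3. Between the peptides, a replicate block called Col3a1 (0.11, edgeR adjusted p = 0.045) and Col5a3 (0.18, adjusted p = 0.026), 2 of the 7 higher with HNG under that block. That fit called 1054 of all genes tested, beside 637 in the main fit. A block by library-name number, where replicates 2 and 3 share a number, called 0 of the 7 higher (Col3a1 adjusted p = 0.155, Col5a3 0.268), and replicates 2 and 3 summed called 0 (0.389 and 0.257). Removing a trend with gene length together with the block called Col5a3 between the peptides (0.17, adjusted p = 0.032; 1 of the 7 higher) and Col11a1 in AngII+HNG against AngII (-0.12, adjusted p = 0.040; 1 of the 7 lower). Those fits called 1457 of all genes between the peptides and 1664 in AngII+HNG against AngII. Correlations of same-numbered libraries were -0.0757 to 0.212; those of replicate 4 were above 0.1 in each comparison (0.136, 0.119 and 0.212), most of the others were not, and 2, 4 and 5 of 8 libraries correlated best with their own number in the HNG, MOTS-c and peptide comparisons, so the numbers were not taken as pairs. The block changed no other call of a member. The cause of these changes was not tested.

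In AngII+MOTS-c against AngII, values near 0 turned sign. Col1a1 was -0.0013 without a filter, -0.00046 in a fit of all 12 libraries, -0.0079 with replicates 2 and 3 summed, and -0.020 with the length trend removed, without and with the block. Col5a1 under the same alternatives was -0.0011, -0.00021, -0.0019, -0.026 and -0.026. Col5a2 was -0.0092 with a block by library-name number and -0.020 with the length trend removed, without and with the block. Col11a1 was 0.0058 with replicates 2 and 3 summed and 0.0044 and 0.0045 with limma on log2(FPKM + 1) and log2(FPKM + 0.1). Leaving out 1 library, or replicate 4 of both treatments, gave -0.015 to 0.013 for Col1a1, -0.012 to 0.011 for Col5a1, -0.0098 to 0.0097 for Col5a2, -0.032 to 0.022 for Col11a1 and -0.0030 to 0.16 for Col27a1 in this comparison. It gave -0.068 to 0.0038 for Col1a1 in AngII+HNG against AngII, and -0.068 to 0.00088 for Col1a1 and -0.0014 to 0.039 for Col5a1 between the peptides.

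The number of all genes called moved more. From 869 in AngII+HNG against AngII it went to 577 with replicates 2 and 3 summed, 1316 with the length trend removed and 1664 with the block added, and 431 to 932 without single libraries (431 without AngII replicate 1, 485 without replicate 2, 512 without replicate 3, 541 without replicate 4 of both). From 1 with MOTS-c it went to 3 with DESeq2, 0 in the fit of all 12 libraries and with replicates 2 and 3 summed, 2 with the block, with or without the length trend removed, and 0 to 3 without single libraries. From 637 between the peptides it went to 1042 with DESeq2, 975 in the fit of all libraries, 1054 with the block, 1457 with the block and the length trend removed, and 322 to 625 without single libraries. Of the 78 pathway genes, DESeq2 called 15 lower and 2 higher with HNG against AngII and 16 lower and 1 higher against MOTS-c, and limma on log2(FPKM + 1) 5 lower and 1 higher and 5 lower and none higher. With TPM in place of FPKM the means in AngII, AngII+HNG and AngII+MOTS-c were 9965, 9714 and 10110 for Col1a1, 7605, 7488 and 7883 for Col1a2, 9592, 10003 and 9373 for Col3a1, 793, 808 and 807 for Col5a1, 826, 789 and 839 for Col5a2, 78.3, 80.8 and 72.8 for Col5a3, and 119, 111 and 121 for Col11a1; TPM has a fixed sum in each library.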
